A study of Mus musculus with 24 samples.

Results

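The 10 genes described here are markers of microglia, measured in the hippocampus of 9-day-old mouse pups: Cx3cr1, P2ry12, Csf1r, C1qa, C1qb, Trem2, Tyrobp, Aif1, Itgam and Itgax. They were found on the arrays as every non-control probe that carried one of these gene names, which gave 15 probes of 55681 probes in all, and 10 of 36163 gene names. Microglia are the resident macrophages of the brain. They settle there before birth, live on signals passed through the CSF1 receptor, and in the young hippocampus they clear dying cells and prune synapses, partly with the help of complement. In development some of them, chiefly those near growing white matter, take on an amoeboid, phagocytic state in which Itgax and a set of other genes are switched on.

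Messenger RNA was measured on 15 Agilent arrays with 1 dye, 1 animal to an array, and all animals were labelled as male C57BL/6 pups at postnatal day 9 (P9). The 5 controls (Con) were untreated and kept with the dam under minimal handling. From P5 the 5 pups of MS2 and the 5 of MS5 received morphine by subcutaneous injection at 2 and 5 mg/kg, each followed by a simulated apnea of nitrogen and then oxygen, and were kept apart from the dam in warmed cups during the day. The study asked what morphine with stress does to hippocampal transcripts. No group received stress without morphine, so the parts of the drug, the apnea and the separation cannot be told apart, and both treated groups are set against the same 5 control arrays. Treated pups went back to cages that also held control littermates, and the labels do not tell which pups shared a litter.

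All 15 probes were well above background on all 15 arrays, and none was saturated. For 1 of them, an Itgam probe with a CA repeat described below, that signal does not show that Itgam was read. The microglial label rests on the other probes, which gave a signal in every animal. Levels below are log2 values after background adjustment and normalization between arrays. A level of 1 probe cannot be set against that of another, because probes differ in brightness. The RNA came from whole hippocampi, so fewer microglia and less RNA per microglial cell cannot be told apart.

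Some arrays stood apart in measures other than the microglial genes. MS5 replicate 9 was labelled male but had an Xist level of 11.34, against 5.89 to 6.08 on the other 14 arrays. MS2 replicate 5 was dim, with a median spot signal of 58.2 and 67.1% of spots well above background. MS2 replicate 4 lay 1.79 below the 15-array mean over 7 markers of hippocampal neurons (mean deviation of -1.79). Values without these 3 arrays are given for Itgax and for the genes most like it. That set was chosen after the data were seen, and it does not include MS5 replicate 14. Choroid plexus markers were low on MS5 replicates 14 and 9 (mean deviations of -2.74 and -1.81). In MS5 versus Con 8 of 9 of these markers passed the study's threshold, where 0.228% of all probes did.

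Of the 10 genes, Itgax was lower in both treated groups, and the other 9 genes kept levels that differed by little between the groups. Itgax fell by 0.66 on the log2 scale in MS5 relative to Con, and its difference in MS2 was -0.57. For the probes of the other 9 genes the differences from Con ran from -0.13 to 0.16. The study called a probe changed when it differed by more than 1.5-fold and its unadjusted p was under 0.05. After Benjamini-Hochberg adjustment over all 55681 probes no probe of the 10 genes was called in any contrast.

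By that threshold, limma called 1 of the 15 probes in MS5 versus Con, where 0.228% of all probes were called. It called 0 of 15 in MS2 versus Con, with a background of 0.0233%, and 0 of 15 in MS5 versus MS2, with a background of 0.129%. With MS2 and MS5 pooled against Con, 1 of 15 was called and the background was 0.0539%. In each case the probe called was that of Itgax. At an unadjusted p under 0.05 and any size of change, limma gave 1 probe of 15 in MS2 versus Con (4.17% of all probes), 2 in MS5 versus Con (3.91%), 1 in MS5 versus MS2 (3.97%) and 1 in the pooled contrast (4.14%). At an adjusted p under 0.05, 0% of all probes were called in each of the 4 contrasts. The levels of Con and a treated group were never fully separated for a member: 0 of 15 probes had groups that did not overlap, where 0.699% of all probes had such groups in MS2 versus Con, 0.832% in MS5 versus Con and 0.625% in MS5 versus MS2.

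**Figure D1:**
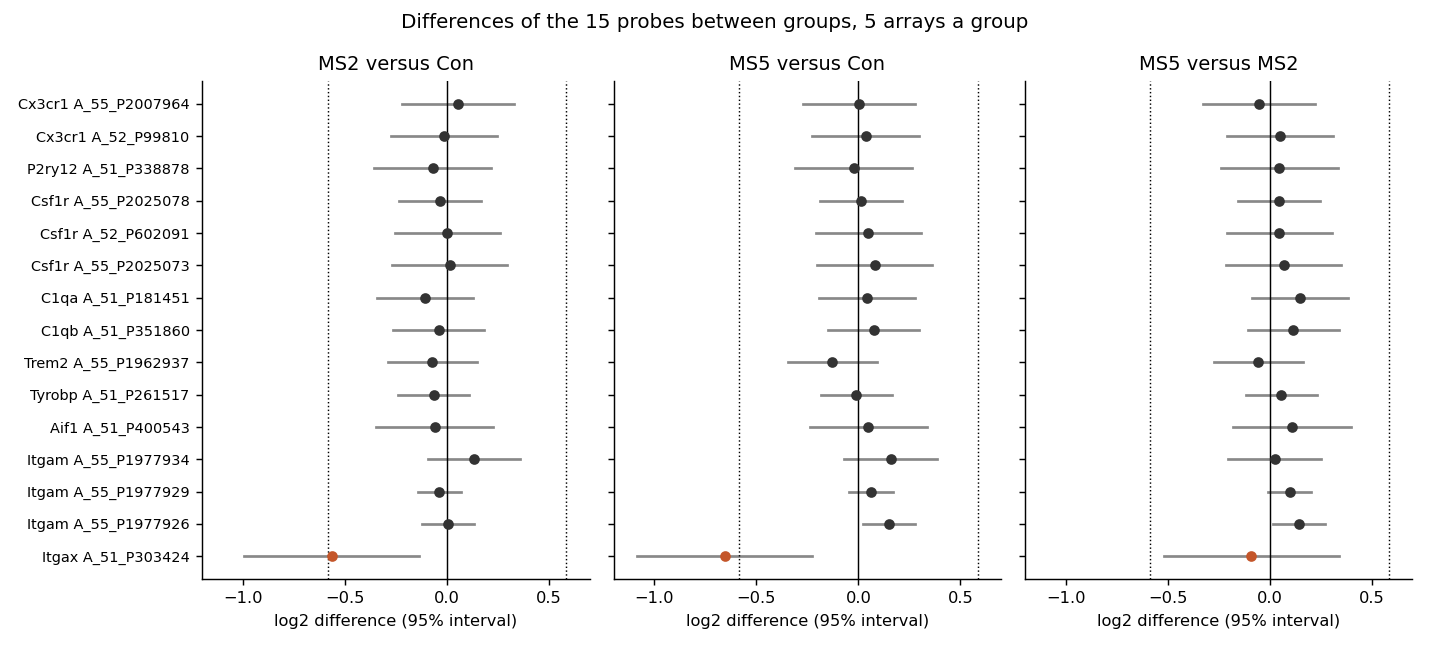
Log2 difference of each of the 15 probes (rows) in MS2 versus Con, MS5 versus Con and MS5 versus MS2, with its 95% interval from limma (horizontal lines). Dotted lines stand at a 1.5-fold change, and the point of Itgax (in orange) is the one that reaches that line, at -0.66 in MS5 versus Con.

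Itgax encodes CD11c, the alpha X integrin subunit, which is found on dendritic cells and on a minor class of microglia. Its single probe lies at chr7:135294052-135294111 on the plus strand of mm9. On the control arrays the log2 level was 6.80, 7.14, 6.47, 7.22 and 8.00 in replicates 15 to 19. On the MS2 arrays it was 6.65, 6.59, 6.30, 6.60 and 6.67 in replicates 1, 3, 4, 5 and 7. On the MS5 arrays it was 6.58, 6.41, 6.49, 6.56 and 6.31 in replicates 8, 9, 12, 13 and 14. All 10 treated arrays lay at or below 6.67, and all control arrays but replicate 17 lay above that value. The control arrays were also the most spread out, with a mean of 7.13 ± 0.57 (SD, n = 5), against 6.56 ± 0.15 in MS2 and 6.47 ± 0.11 in MS5.

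The mean difference in Itgax was -0.66 in MS5 versus Con, a ratio of 0.635, with a 95% interval from -1.08 to -0.23. The unadjusted limma p was 0.00545, the adjusted p was 1.00, and the two-sided exact permutation p over all assignments of the arrays was 0.0317. In MS2 versus Con the difference was -0.57, a ratio of 0.676, with an interval from -0.99 to -0.14. There the limma p was 0.0134, the adjusted p 0.970 and the exact permutation p 0.0476, and the change stopped just short of 1.5-fold. MS5 and MS2 differed by -0.09 in Itgax, with an interval from -0.52 to 0.34 and an exact permutation p of 0.294, so no difference between the doses was seen beyond the spread. Itgax is among the genes that the study singled out from these same arrays, and these values are therefore no independent evidence of its direction. The study lists smaller differences for Itgax, -0.60 in MS5 and -0.44 in MS2. When limma gave each array a weight, the differences here were also -0.60 and -0.44. The study's methods name no such weights.

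The size of the Itgax difference varied with the arrays and with the treatment of background. Without Con replicate 19, the highest array, it was -0.44 in MS5 versus Con (exact permutation p = 0.0317) and -0.35 in MS2 versus Con (exact permutation p = 0.0952), and by limma both kept an unadjusted p under 0.05. The arrays lay on 2 slides that each held all 3 groups. On slide 1 alone, which held Con replicates 15, 17 and 18, the differences were -0.26 in MS5 and -0.20 in MS2, neither with a limma p under 0.05. On slide 2 alone, which held Con replicates 16 and 19, they were -1.16 in MS5 and -1.12 in MS2, both with a limma p under 0.05. The spots of Itgax were dim, with mean signals of 51.8 to 209.9 on control arrays and 31.9 to 68.0 on treated arrays, over a local background of 17 to 21. The offset of 50 that is added to every spot narrows ratios of dim spots by construction, and with an offset of 0 the differences were -1.14 in MS5 and -0.95 in MS2. With MS2 replicates 4 and 5 and MS5 replicate 9 left out together, the difference in MS5 was -0.64 (limma p = 0.0151, exact permutation p = 0.0714) and that in MS2 was -0.49 (limma p = 0.0692, exact permutation p = 0.232).

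**Figure D2:**
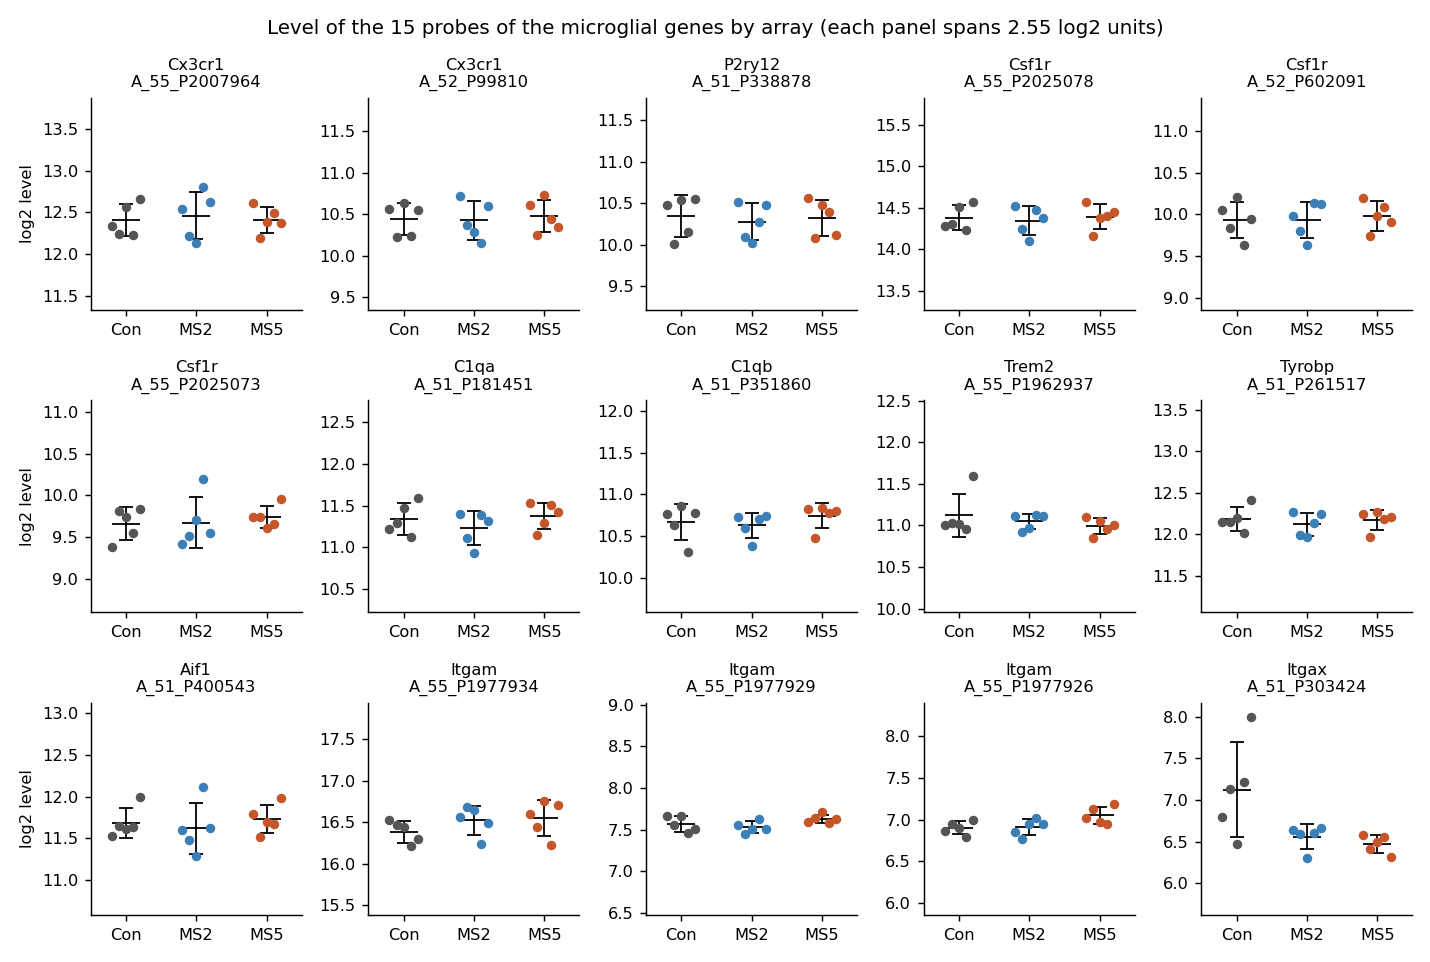
Log2 level of the 15 probes on each array, by group (Con grey, MS2 blue, MS5 orange). Points are single arrays, horizontal bars are group means and error bars are 1 SD (n = 5); each panel spans the same height on the log2 scale. Itgax, in the last panel, has control levels from 6.47 to 8.00 and treated levels of at most 6.67, whereas in the other panels the groups lie over one another.

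Cx3cr1, P2ry12 and Csf1r are surface receptors that set resting microglia apart from many other cells. Cx3cr1, the receptor of the neuronal chemokine fractalkine, was read by a pair of probes on the minus strand, at chr9:119959018-119959077 and chr9:119957811-119957870 of mm9. At the first, levels were 10.56, 10.23, 10.63, 10.24 and 10.56 in Con replicates 15 to 19. They were 10.73, 10.37, 10.29, 10.15 and 10.60 in MS2, and 10.61, 10.25, 10.73, 10.45 and 10.35 in MS5. The 3 groups covered the same range, and the differences from Con were -0.02 in MS2 and 0.04 in MS5. The second probe gave 0.05 and 0.00 for the same contrasts. It overlaps another probe on the array, and the levels of the pair had an r of 0.96 over the 15 arrays.

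P2ry12, a receptor for ADP that guides microglial processes to damage, has its probe at chr3:59020598-59020657 on the minus strand of mm9. Levels ran from 10.01 to 10.55 in Con, from 10.02 to 10.51 in MS2 and from 10.08 to 10.56 in MS5. The groups overlapped almost completely. The differences from Con were -0.07 in MS2 (interval -0.36 to 0.22) and -0.02 in MS5 (interval -0.31 to 0.26). In Con, replicates 16 and 18 lay at 10.01 and 10.16 and the other 3 at 10.49 or above.

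Csf1r, the receptor of CSF1 and IL34 on which microglia depend, was read by 3 probes. The differences from Con ran from -0.04 to 0.01 in MS2 and from 0.01 to 0.08 in MS5, and no permutation p for them was under 0.492. The probe A_55_P2025073 was highest on MS2 replicate 5, the dim array, at 10.20, where the other 14 arrays lay between 9.38 and 9.96.

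C1qa and C1qb encode chains of C1q, the complement component that tags synapses and debris. C1qa, with its probe at chr4:136452409-136452468 on the minus strand of mm9, had levels of 11.21, 11.29, 11.47, 11.12 and 11.59 in Con. It had 11.40, 11.11, 10.93, 11.39 and 11.32 in MS2, and 11.53, 11.15, 11.30, 11.50 and 11.42 in MS5. The lowest array was MS2 replicate 4 and the highest was Con replicate 19, and the group means of 11.34, 11.23 and 11.38 lay within 1 SD of each other. C1qb, at chr4:136436578-136436637, likewise had means of 10.67 ± 0.22 in Con, 10.63 ± 0.15 in MS2 and 10.74 ± 0.15 in MS5 (SD, n = 5). Its differences from Con were -0.04 (interval -0.26 to 0.18) and 0.07 (interval -0.15 to 0.30).

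Trem2, a receptor for lipids and cell debris, signals through the adaptor encoded by Tyrobp (DAP12). Trem2 levels at chr17:48491537-48491596 on the plus strand of mm9 were 11.01, 11.03, 11.02, 10.95 and 11.59 in Con. In MS2 they were 11.11, 10.92, 10.97, 11.13 and 11.11, and in MS5 they were 11.10, 10.85, 11.05, 10.95 and 11.01. Con replicate 19 stood apart from the other 14 arrays, which all lay between 10.85 and 11.13. The differences from Con were -0.07 in MS2 (exact permutation p = 0.841) and -0.13 in MS5 (exact permutation p = 0.452). Tyrobp, whose probe spans an exon junction within chr7:31200651-31202378, ran from 12.02 to 12.41 in Con, from 11.97 to 12.26 in MS2 and from 11.97 to 12.26 in MS5. Its differences from Con were -0.07 and -0.01.

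Aif1 encodes IBA1, the calcium-binding protein most often stained to show microglia. Its level at chr17:35307959-35308018 on the minus strand of mm9 was 11.68 ± 0.18 in Con, 11.62 ± 0.31 in MS2 and 11.73 ± 0.17 in MS5 (SD, n = 5). MS2 replicate 5 was the highest array at 12.12 and MS2 replicate 4 the lowest at 11.28, so MS2 alone covered the range of all 15 arrays.

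Itgam encodes CD11b, the integrin alpha M subunit, which forms complement receptor 3 with the product of Itgb2. It was read by 3 probes that lie along the gene on the plus strand of mm9, at chr7:135212140-135212199, chr7:135260275-135260334 and chr7:135261755-135261814. The first 30 bases of these probes, in that order, and of the Itgax probe are shown because the last Itgam probe opens with a CA repeat, which is in capitals.
Itgam A_55_P1977926: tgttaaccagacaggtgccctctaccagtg
Itgam A_55_P1977929: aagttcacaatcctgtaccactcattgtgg
Itgam A_55_P1977934: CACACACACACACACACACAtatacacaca
Itgax A_51_P303424: tcccatctacttttgcaacgttggaattga

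The repeat of 20 bases was found in 1 of the 15 probes. On the array 33 other probes (0.0593%) hold a CA run of at least 16 bases. Over the 15 arrays the median r of the repeat probe, A_55_P1977934, with these probes was 0.94, and its median r with the 8 genes other than Itgam and Itgax was -0.08. Levels of Itgam in the groups are therefore described from the other 2 probes. Where 1 probe stands for a gene below, the rule for choosing it took the repeat probe for Itgam, and values with the other probes, a choice made after seeing the data, are given beside it.

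At A_55_P1977926, levels ran from 6.80 on replicate 18 up to 6.95 on replicate 16 and just above it on replicate 19 in Con, and were 6.85, 6.77, 6.94, 7.02 and 6.95 in MS2. They were 7.02, 7.13, 6.97, 6.95 and 7.19 in MS5. The MS5 arrays lay in the upper part of the range and overlapped with both other groups. The difference was 0.15 in MS5 versus Con (interval 0.02 to 0.28, limma p = 0.0254, adjusted p = 1.00), with an exact permutation p of 0.0317. In MS5 versus MS2 it was 0.14 (limma p = 0.0297, exact permutation p = 0.0635). Both were far below 1.5-fold. When single arrays were left out in turn, the MS5 versus Con difference ran from 0.11 to 0.17 and had a p under 0.05 in 11 of 15 fits. At A_55_P1977929 the MS5 versus Con difference was 0.06, with an exact permutation p of 0.214, and that of MS5 versus MS2 was 0.10, with an exact permutation p of 0.0397.

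Among 8 of the 10 genes many pairs, but not all, varied together from animal to animal, with the group means removed as well. Pearson r and Spearman rho were computed over the 15 arrays for the 45 pairs of the 10 genes, with 1 probe a gene and permutation p-values from 100000 resamples, adjusted over the 45 pairs. For 18 pairs the adjusted p of r was under 0.05, and all 18 were among the 28 pairs of the 8 genes other than Itgam and Itgax. By rho the count was 14. With either of the other Itgam probes in place of the repeat probe, the count by r was again 18. The median r of those 28 pairs was 0.66, with a range from -0.05 to 0.87, and it was 0.68 with the group means removed. Within slide 1 it was 0.79 and within slide 2 it was 0.68, as descriptions of 8 and 7 arrays. Pairs of genes outside the 10 were not examined in this way. Whether such r values are particular to these genes was therefore not tested.

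Csf1r and C1qb were the pair with the highest r, at 0.87 (rho = 0.73, permutation p = 2e-05, adjusted permutation p = 0.0009), and r was 0.74 without the 2 arrays farthest from the median of Csf1r. C1qa and Tyrobp had r = 0.85 (rho = 0.78, adjusted permutation p = 0.0009), and 0.77 without the farthest arrays. Cx3cr1 and P2ry12 had r = 0.85 (rho = 0.75, adjusted permutation p = 0.00218), with 0.93 on the reduced set. Trem2 and Tyrobp, receptor and adaptor, had r = 0.78 (rho = 0.71, adjusted permutation p = 0.0012), with 0.69 on the reduced set. For C1qa and C1qb r was 0.81 (rho = 0.76, adjusted permutation p = 0.00218), and 0.76 on the reduced set. The lowest r values among the 8 were those of Aif1, at -0.05 against Cx3cr1 and 0.28 against P2ry12. The value with Cx3cr1 depended on the probe and on MS2 replicate 5, the dim array. There the Cx3cr1 probe used was at its lowest (10.15) and the other Cx3cr1 probe at its highest (12.80). The lowest r of the 28 pairs was 0.28 with the probe of the highest mean level for each gene, and 0.24 without MS2 replicate 5.

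**Figure D3:**
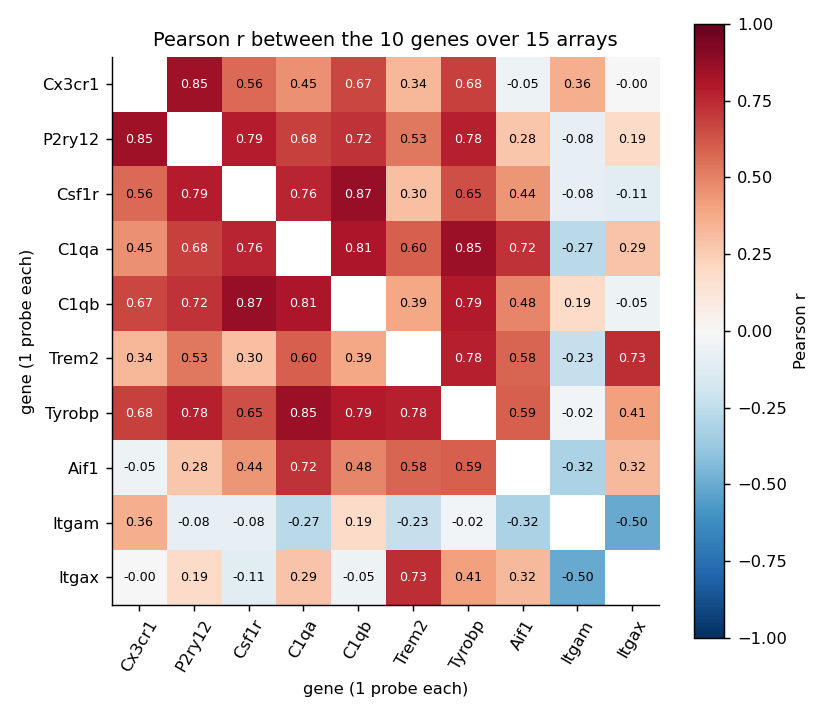
Pearson r between each pair of the 10 genes over the 15 arrays, with 1 probe a gene (red for positive, blue for negative). The 8 genes from Cx3cr1 to Aif1 have a median r of 0.66 with each other, and in the last rows and columns the Itgam probe with the CA repeat and Itgax have medians of -0.08 and 0.24 with those 8.

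Itgax and Itgam had lower median r values with these 8 genes than the 8 had with each other, a difference that was not tested. The r of Itgax with the 8 genes ran from -0.11 to 0.73 with a median of 0.24, and 0 of the 8 had an adjusted permutation p under 0.05, though that with Trem2 had an unadjusted permutation p of 0.0275. Trem2 gave the highest, at r = 0.73 (rho = 0.41, adjusted permutation p = 0.0619), and that relation rested on single arrays. Without Con replicate 19, no r of Itgax with the 8 genes was above 0.08. For Trem2, r was -0.08 without the 2 arrays farthest from its median, Con replicate 19 and MS5 replicate 9. With the probe of the highest mean level for each gene, the adjusted permutation p of Itgax with Trem2 was 0.0476, and by rho it was 0.202. Within slide 1 the median r of Itgax with the 8 genes was -0.57, and within slide 2 it was 0.45. Itgam read from A_55_P1977929 had a median r of 0.30 with the 8 genes (range -0.12 to 0.56), and read from A_55_P1977926 it had 0.15 (range -0.19 to 0.49). With each of these probes 0 of the 8 relations had an adjusted permutation p under 0.05, and 1 and 0 had an unadjusted one.

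The promoters of C1qb, which varied with the other microglial genes, and of Itgax, the member that was lower in the treated groups, are shown as the 250 bases before the transcript start, from RefSeq on GRCm38.p6. The capitals mark the letters GAGGAA and GGAAGT on either strand, core sequences of the kind that PU.1, the master factor of macrophages and microglia, and other ETS factors bind. The motifs share the letters GGAA and can overlap. C1qb is at chr4:136886201-136886450 on the minus strand and Itgax at chr7:128129300-128129549 on the plus strand.
C1qb: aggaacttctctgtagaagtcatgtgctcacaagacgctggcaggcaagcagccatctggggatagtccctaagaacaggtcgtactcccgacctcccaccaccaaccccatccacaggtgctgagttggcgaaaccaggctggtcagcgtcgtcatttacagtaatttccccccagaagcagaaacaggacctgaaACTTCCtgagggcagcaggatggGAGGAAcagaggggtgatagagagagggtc
Itgax: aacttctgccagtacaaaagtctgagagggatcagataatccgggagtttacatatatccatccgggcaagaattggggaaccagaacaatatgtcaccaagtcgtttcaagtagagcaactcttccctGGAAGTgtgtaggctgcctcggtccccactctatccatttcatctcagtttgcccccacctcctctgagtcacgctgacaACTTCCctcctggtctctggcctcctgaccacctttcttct

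The window from 250 bases before to 50 after the start was searched in 7 of the 10 genes. GAGGAA was found in 4 of the 7 (C1qb, Itgam, Aif1 and Trem2) and in 28.3% of all 32851 promoters. GGAAGT was found in 3 of the 7 (P2ry12, C1qb and Itgax) and in 23.8% of all promoters. C1qb held 1 match to each, 30 and 53 bases before the start, and Itgax held 2 matches to GGAAGT, 121 and 41 bases before it.

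Other genes of microglia also lay close to Con. Of 26 further genes, among them Tmem119 and Fcrls, 15 were higher and 11 lower in MS5 versus Con, with a median difference of 0.01, where the median of all probes was 0.00. In MS2 versus Con 11 were higher and 15 lower, with a median of -0.01. By limma 0 of the 26 passed the threshold in either contrast, and 1 had an unadjusted p under 0.05 in each. Among all probes 4.17% had such a p in MS2 and 3.91% in MS5, so these counts do not stand out. The genes were Sall1, a transcription factor of microglial identity, at -0.21 in MS2, and Csf3r, a cytokine receptor of myeloid cells, at 0.12 in MS5. The Csf3r probe was very bright, with a mean level of 16.89 in Con, and whether it reads only Csf3r was not tested. Toward the ends of the list in MS5 stood Laptm5 (0.22) and Rgs10 (0.20) on the higher side, and Gpr34 (-0.14) on the lower side. In MS5 versus MS2, 22 of the 26 genes were higher and 3 lower, with a median of 0.04, where 49.3% of all probes were lower. By limma 0 of them had an unadjusted p under 0.05 there. Of the 10 marker genes, 8 were higher and 2 lower in that contrast. Whether these counts go beyond what genes that vary together would give was not tested.

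Ligands and partners of the 10 gene products were likewise close to Con. Of 17 genes, 8 were higher and 9 lower in MS5, with a median of -0.01, and 0 passed the threshold by limma. The only one with an unadjusted p under 0.05 against Con was C3ar1, the receptor of the complement fragment C3a, at -0.13 in MS5. Among all probes 3.91% had such a p in MS5 versus Con. The differences in MS5 versus Con were 0.03 for Cx3cl1, the ligand of CX3CR1, 0.05 for Il34 and -0.10 for Csf1, the ligands of the CSF1 receptor, and 0.10 for Itgb2, the partner of CD11b and CD11c. C3 (0.39) and C2 (0.16) had the highest differences, though the second probe of C3 gave 0.16, and C1ra (-0.18) and C1s (-0.15) the lowest. None of these had a p under 0.05.

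Gpnmb and Clec7a, a pair of genes of the amoeboid and phagocytic microglial state, were among the 5 whose pattern was most like that of Itgax by Pearson r. Among 23684 probes that carried a gene symbol and were well above background on every array, the highest r with Itgax over the 15 arrays was that of Gpnmb, at 0.95, followed by Slpi (0.93), Gm9457 (0.89), Clec7a (0.88) and C79407 (0.87). These r values were ranked from many candidates and are descriptions. By rho the likeness of Clec7a was weak, at 0.34, and without Con replicate 19 its r was 0.65. For the others rho was 0.71 (Gpnmb), 0.75 (Slpi), 0.74 (Gm9457) and 0.60 (C79407). Lgals3, not among the 5, had a rho of 0.72 with Itgax. Without Con replicates 19 and 18, r was 0.81 for Gpnmb, 0.68 for Slpi, 0.70 for Gm9457, 0.47 for Clec7a and 0.52 for C79407. With the group means removed it was 0.91 for Gpnmb and 0.92 for Slpi. Gpnmb had an r of 0.76 within slide 1 and 0.98 within slide 2.

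Gpnmb, a membrane glycoprotein of phagocytes, was measured at 6.88, 7.19, 6.86, 7.12 and 8.24 in Con replicates 15 to 19. It was measured at 6.58, 6.62, 6.63, 6.63 and 6.82 in MS2 and at 6.73, 6.58, 6.59, 6.66 and 6.57 in MS5. All control arrays lay above all treated arrays, and Con replicate 19 was far above the rest. Among all probes, 0.832% had groups that did not overlap in MS5 versus Con and 0.699% in MS2 versus Con. Gpnmb and Clec7a were picked for their likeness to Itgax on these same arrays. Their lower levels in the treated groups are therefore no independent evidence. Gpnmb fell by 0.63 in MS5 (adjusted limma p = 1.00, exact permutation p = 0.00794) and by 0.60 in MS2 (adjusted limma p = 0.970, exact permutation p = 0.00794), past the threshold in both, and 0.00794 is the smallest exact p that 5 arrays against 5 allow. Without Con replicate 19 the differences were -0.39 and -0.36, within 1.5-fold. On slide 1 alone they were -0.26 and -0.28, and on slide 2 alone -1.13 and -1.08, all with a limma p under 0.05. Without MS2 replicates 4 and 5 and MS5 replicate 9 they were -0.62 in MS5 (exact permutation p = 0.0238) and -0.59 in MS2 (exact permutation p = 0.125).

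Clec7a, the beta-glucan receptor dectin-1, lay at 7.22, 7.82, 7.53, 7.79 and 8.60 in Con, between 7.04 and 7.37 in MS2 and between 7.15 and 7.42 in MS5. Con replicate 15 overlapped with the treated arrays and the other 4 did not. The differences were -0.49 in MS5 (exact permutation p = 0.0476) and -0.53 in MS2 (exact permutation p = 0.0397). Both stayed within 1.5-fold. Without Con replicate 19 they were -0.29 (exact permutation p = 0.0794) and -0.33 (exact permutation p = 0.0714). Without the 3 arrays that stood apart they were -0.46 (exact permutation p = 0.103) and -0.57 (exact permutation p = 0.107).

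Spp1, which encodes the secreted glycoprotein osteopontin, lay at 7.88, 8.89, 7.66, 8.41 and 9.59 in Con, between 7.10 and 7.95 in MS2 and between 7.32 and 8.45 in MS5. Replicates 16 and 19 of Con were above all treated arrays. Spp1 fell by 0.72 in MS5 (exact permutation p = 0.111) and by 0.90 in MS2 (exact permutation p = 0.0397), and by limma both were past the threshold. Without Con replicate 19 the difference in MS5 was -0.45 (exact permutation p = 0.214) and that in MS2 was -0.62 (exact permutation p = 0.0556). On slide 1 alone the differences of Spp1 were -0.27 in MS5 and -0.23 in MS2 and those of Clec7a were -0.18 and -0.29, none with a limma p under 0.05. Without the 3 arrays that stood apart Spp1 differed by -0.90 in MS5 (exact permutation p = 0.0714) and by -0.73 in MS2 (exact permutation p = 0.196), where its limma p was no longer under 0.05. With single arrays left out the limma p of Spp1 was under 0.05 in 9 of 15 fits in MS5 and in 15 of 15 in MS2, and it was lost in MS5 without Con replicate 16, 18 or 19 or MS5 replicate 8, 12 or 14.

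**Figure D4:**
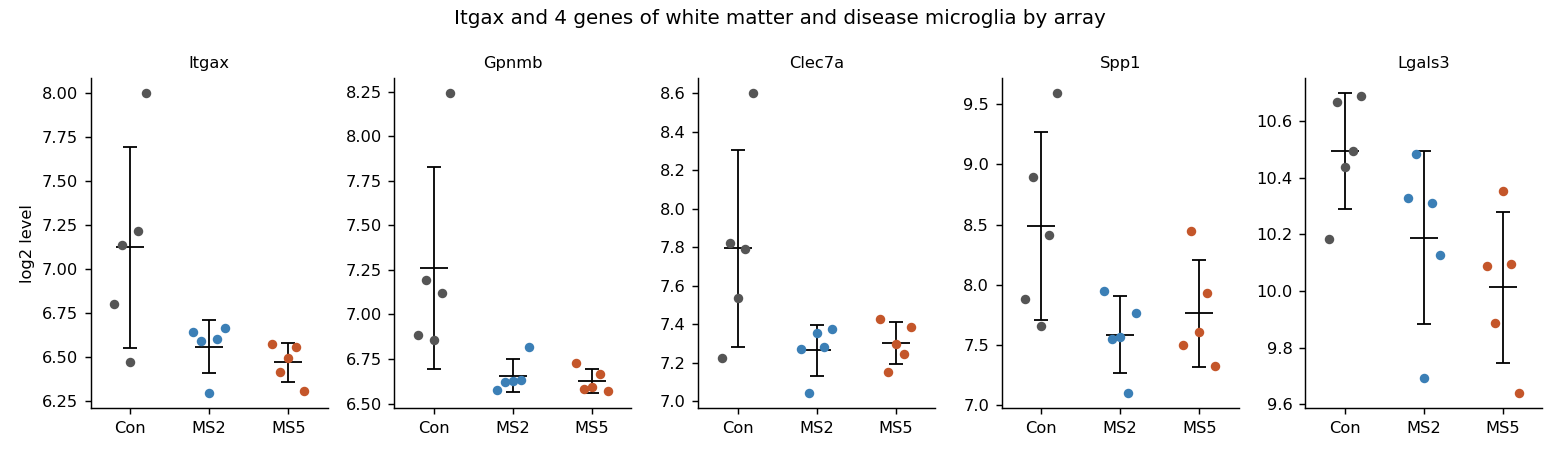
Log2 level of Itgax, Gpnmb, Clec7a, Spp1 and Lgals3 on each array by group (Con grey, MS2 blue, MS5 orange). Points are arrays, horizontal bars group means and error bars 1 SD (n = 5). In Itgax, Gpnmb, Clec7a and Spp1 the highest point is Con replicate 19, at 8.00, 8.24, 8.60 and 9.59; each panel has its own vertical axis.

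Gpnmb, Clec7a and Spp1 belong to a list of 12 genes of microglia in growing white matter and in disease, which was drawn up with results of these arrays known. In MS5 versus Con all 12 differences were below 0, where 49.8% of all probes were lower, and the median was -0.19. In MS2 versus Con 8 of 12 were below 0, where 51.1% of all probes were lower, and the median was -0.16. By limma 5 of 12 fell at an unadjusted p under 0.05 in MS5 and 4 of 12 in MS2, where 2.44% and 2.12% of all probes were lower at that p. None had an adjusted p under 0.05, and 2 of 12, Spp1 and Gpnmb, passed the threshold in each contrast. The others with a p under 0.05, named after their values were seen, were Lgals3 (-0.48, galectin-3) and Cd63 (-0.21, a lysosomal membrane protein) in MS5, and Cst7 (-0.14, cystatin F) in MS2. Lpl (-0.17 and -0.57), Igf1 (-0.09 and 0.17), Cd9 (-0.26 and -0.19), Fabp5 (-0.02 and 0.03), Ctsb (-0.01 and 0.03) and Axl (-0.03 and 0.00), given for MS5 and MS2, did not reach it. The MS2 value of Lpl came from MS2 replicate 4, at 10.72 where the other 14 arrays lay between 13.64 and 14.51, and without the 3 arrays that stood apart it was 0.15. That of Igf1 was then 0.00, and 7 of the 12 genes were below 0 in MS2 and 10 in MS5. Without Con replicate 19 the counts at a p under 0.05 were 4 in MS5 and 3 in MS2, on slide 1 alone they were 3 and 1, and without MS2 replicates 4 and 5 and MS5 replicate 9 they were 5 and 2. That last set keeps MS5 replicate 14. Within MS5, Cd63 (14.60 and 14.63), Lgals3 (9.89 and 9.64) and Cd9 (12.71 and 12.94) were lowest on replicates 9 and 14. Those are the arrays with low choroid plexus markers. Spp1 was highest in MS5 on replicate 9 (8.45). How far these genes read cells other than microglia was not tested.

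**Figure D5:**
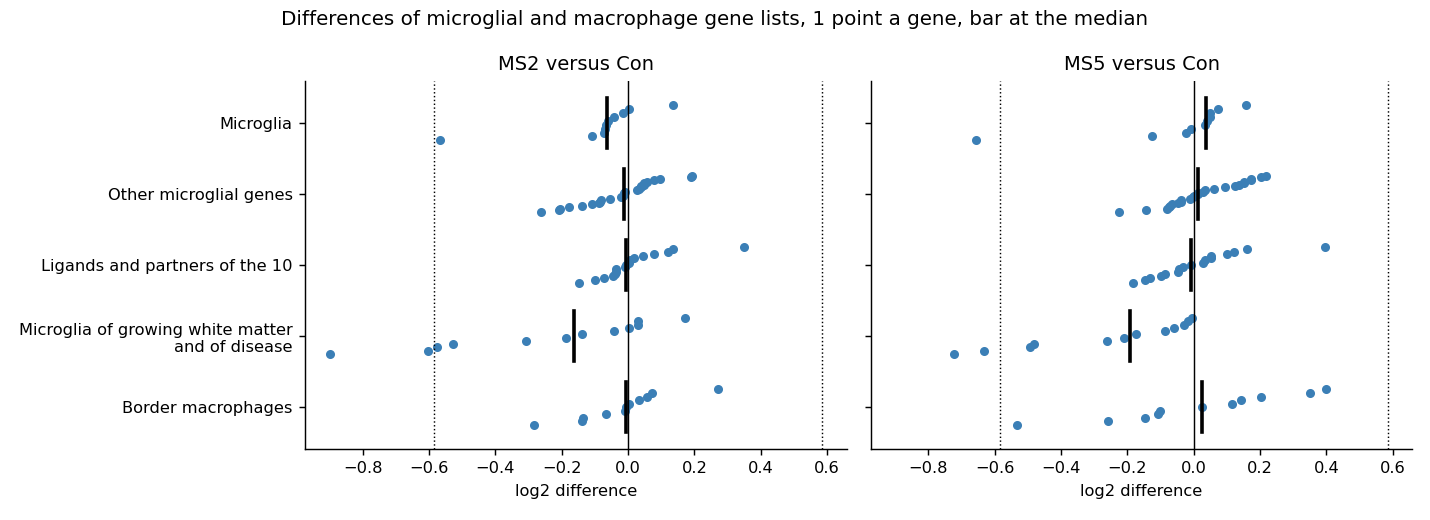
Log2 difference of each gene (points, 1 probe a gene) in MS2 versus Con and MS5 versus Con for 5 lists of microglial and macrophage genes. Black bars are list medians and dotted lines stand at a 1.5-fold change. The median of the white matter and disease list is -0.19 in MS5, and the medians of the other 4 lists lie between -0.01 and 0.04 there.

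Con replicate 19, the array with the highest Itgax level, was high in other markers as well. It lay 0.73 above the 15-array mean over 6 oligodendrocyte markers and 0.41 above it over 11 markers of blood leukocytes. Oligodendrocyte markers ranged from -0.73 to 0.73 in Con, -0.41 to 0.77 in MS2 and -0.70 to 0.87 in MS5. Blood leukocyte markers ranged from -0.13 to 0.41, -0.11 to 0.25 and -0.14 to 0.11, and Ccr2 and Cd209a, which mark monocytes and monocyte-derived dendritic cells, were not well above background on any array. Border macrophage markers, lowest on Con replicate 19, ranged from -0.36 to 0.27, -0.30 to 0.22 and -0.23 to 0.29. By limma 0 of 11 were past the threshold in MS5 or MS2. In MS5 3 of 11 had an unadjusted p under 0.05, where 3.91% of all probes had such a p. Of these, Folr2 (-0.53) and Stab1 (-0.26) were lower. Cd163 was higher, and its probe was well above background on 1 Con, 1 MS2 and 3 MS5 arrays. Red blood cell markers ranged from -0.72 to 0.77 in Con, -0.02 to 0.23 in MS2 and -0.77 to 0.25 in MS5. All 4 of them were lower in MS5 versus Con, with a median of -0.42 and 1, Slc4a1 (-0.40), at an unadjusted p under 0.05. Among all probes 49.8% were lower in that contrast, and 2.44% were lower at that p. Among the controls, replicate 17 was lowest both in these markers (-0.72) and in Itgax. The other controls did not follow this order. Replicate 15 was highest in these markers (0.77) and next to lowest in Itgax. Replicate 19 was next to lowest in these markers (-0.17) and highest in Itgax. The part of white matter content, blood cells or dissection in the lower Itgax level of the treated groups was not tested.

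Over all 10 genes, with the repeat probe for Itgam, the mean deviation from each gene's own 15-array mean gave 1 profile, which was highest on Con replicate 19 (0.29) and lowest on MS2 replicate 4 (-0.24) and MS5 replicate 9 (-0.19). The groups overlapped, with ranges from -0.13 to 0.29 in Con, -0.24 to 0.07 in MS2 and -0.19 to 0.12 in MS5. The non-member genes most like this profile were Cmya5 (r = 0.89), S100a4 (0.88), Scrg1 (0.87), Cyth4 (0.86), Lgi4 (0.86), Diap2 (0.86), Phkg1 (0.85) and Hmha1 (0.85), over 15 arrays and the same 23684 probes. With A_55_P1977929 for Itgam the profile had an r of 0.99 with the first, and the same 8 genes were the most like it, with r from 0.86 to 0.90.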

How the data were processed

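Agilent mRNA arrays of 15 hippocampi (5 Con, 5 MS2 and 5 MS5) were analysed, and miR arrays of the same study were not used. The deposited scanner files give intensity per spot, read by the authors with Feature Extraction and not normalized between arrays; probe positions are on mm9. The series also has log2 values, which the authors made with normexp and quantile normalization, and at the 15 probes they differed from the values used here by at most 4.88e-09. Mean spot signals were corrected by normexp against the local background median (offset 50) and then quantile normalized over 62976 spots, 3671 control spots were dropped, and spots of a probe were averaged (R 4.3.3, limma 3.58.1, and version 1.17.8 of data.table). No spot of the 15 probes was saturated; signal over background limits the precision.

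Groups were compared with limma (lmFit, eBayes) in 1 fit, with Benjamini-Hochberg adjustment over 55681 probes and 2-sided exact permutation tests for single probes. How often a difference of the size of that in Itgax would be found, given the spread of its control arrays, was not tested. Correlations used Python 3.11.15 with numpy 2.4.6 and scipy 1.17.1. For lists, 1 probe stood for a gene: among probes named A_51 or A_52 that with the highest mean, otherwise that with the highest mean of all. Named genes were all members, list genes past the threshold, the 2 highest and 2 lowest of the other microglial genes and of the partners, and the most similar patterns, except 1 gene of the lower side that is not reported here; members and lists were chosen with earlier results of these data known. Alternatives changed the offset, the normalization, the dim-probe filter, array weights, slide, samples in the fit and outlier spots, or left out arrays.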

Additional observations from a re-analysis of the deposited data

Results flagged for a closer look

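In 5 of 45 sets of 5 arrays (15 probes in 3 groups), 1 array lay far from the others by Dixon's test, which chance alone flags in about 1 of 20. Con replicate 19 was high in Trem2 (11.59, next array 11.03) and in Aif1 (12.00, next array 11.64). MS5 replicate 9, whose Xist level went against its label, was low in C1qb (10.47, next array 10.78) and in Tyrobp (11.97, next array 12.18). MS2 replicate 4 was low in Itgax (6.30, next array 6.59).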

How the results depend on the processing

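The members' counts past 1.5-fold with a p under 0.05 turned on Itgax alone. In MS2 versus Con the count was 0, and it was 1 with an offset of 0, with processed signals of the scanner set to a common 75th percentile and on slide 2 alone; with single arrays left out it ran from 0 to 1, and it was 1 without Con replicate 15, Con replicate 17, MS2 replicate 1 or MS2 replicate 7. In MS5 versus Con the count was 1, and it was 0 on slide 1 alone; with single arrays left out it ran from 0 to 1, and it was 0 without Con replicate 19. With the treated groups pooled the count was 1, and it was 0 with array weights, on slide 1 alone and without MS2 replicates 4 and 5 and MS5 replicate 9, an alternative chosen after seeing the data; with single arrays left out it ran from 0 to 1, and it was 0 without Con replicate 19 or MS2 replicate 4. The cause was not tested. In MS5 versus MS2 the count was 0 under every alternative run. For Itgax, every alternative gave a negative difference from Con. It ran from -0.82 to -0.44 in MS5 and from -0.73 to -0.35 in MS2 with single arrays left out, all with a p under 0.05, and it lost that p on slide 1 alone (-0.26 and -0.20) and, in MS2, without the 3 arrays named above (-0.49). For the 55 member differences whose p was not under 0.05 at the outset, at any size of change, 164 of 1416 alternative values changed sign and 9 had a p under 0.05. The median r among the 8 genes ran from 0.61 to 0.73 when single arrays were left out. With the highest-mean probe for each gene 26 of 45 pairs, in place of 18, had an adjusted permutation p under 0.05, of which 25 were among the 8 genes and 1 was Itgax with Trem2 (0.0476). No paired analysis was possible because the 3 groups of mRNA arrays share no replicate numbers. Fits without an array used values normalized with all arrays. With 5 arrays a group, the smallest exact permutation p is 0.00794.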
